A study of Saccharomyces cerevisiae with 6 samples.

Results

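Unannotated 3′ splice sites (3′SSs) that lie downstream of an annotated one were described in budding yeast strains with a fast, a slow or a WT RNA polymerase II (RNAPII). Such a site is joined to the annotated 5′ splice site of an intron, so that the start of the next exon is removed together with the intron. Members were chosen by their read counts in these same libraries. A junction was a member when it was nuclear, unannotated, had GT-AG or GC-AG ends, shared its strand and 5′ end with an annotated junction, ended 1 to 1000 nt downstream of the annotated 3′ end and had at least 2 uniquely mapped split reads summed over the 6 libraries. This gave 377 members of 794 alternative splice sites found in the same way, the others being 151 upstream 3′SSs, 173 downstream 5′ splice sites and 93 upstream ones. The members lay at 183 of 263 annotated nuclear junctions with reads, in 176 host genes. All had GT-AG ends. In 9 of them the 3′ end is itself the annotated end of the next intron, so that only the junction is unannotated and an exon is skipped.

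The mutant strains carried rpb1-G1097D (fast) or rpb1-H1085Y (slow), both changes in the largest subunit of RNAPII, and were compared with RPB1 (WT). In every strain the chromosomal RPB1 gene was deleted and the allele was carried on a LEU2 plasmid. All of them, WT included, also lacked UPF1, which acts in nonsense-mediated decay. RNAs that this pathway would degrade for an early stop codon are therefore kept, and the values do not describe cells in which it works. Total RNA, depleted of ribosomal RNA, of log phase cells was sequenced for 2 independent replicates of each strain. The libraries held 3817449 to 6178858 unique reads on annotated nuclear junctions, with the lowest total in the first slow library.

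In yeast introns the 5′ splice site is first joined to a branch point adenosine, usually within TACTAAC, and the 3′SS is then chosen among the AG dinucleotides that follow it. The 3 bases at the end of an intron are most often TAG or CAG, less often AAG and rarely GAG. An AG a few bases past the annotated one competes with it in this second step of splicing.

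The sequences around the sites that the results turn on were read from the R64 genome and are printed 5′ to 3′ on the strand of the gene. They are shown because the pair of sites, or for TDA5 the unannotated site far from the annotated one, can be seen in each. Capitals mark the last 3 intron bases at the annotated 3′SS, which comes first, and at the unannotated 3′SS.
NBL1, 12 nt downstream, chrVIII:498700-498734, minus strand: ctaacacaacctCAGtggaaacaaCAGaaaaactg
IWR1, 19 nt downstream, chrIV:254948-254989, minus strand: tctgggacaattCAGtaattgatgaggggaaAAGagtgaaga
TFC3, 17 nt downstream, chrI:150982-151021, minus strand: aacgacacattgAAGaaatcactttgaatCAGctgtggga
TAN1, 7 nt downstream, chrVII:62175-62204, plus strand: gatcaaaagtaaTAGtttaAAGtatcttcc
ATG44, 4 nt downstream, chrIX:47746-47772, plus strand: agagaaattggtTAGgTAGggaaacta
HMRA1, 14 nt downstream, chrIII:293979-294015, plus strand: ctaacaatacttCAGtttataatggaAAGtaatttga
PTC7, 10 nt downstream, chrVIII:251234-251266, plus strand: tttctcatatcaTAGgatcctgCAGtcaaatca
SAR1, 4 nt downstream, chrXVI:138850-138876, plus strand: tattttactgtaCAGtCAGagatgtgt
RPS17B, 5 nt downstream, chrIV:1355224-1355251, minus strand: ttgctatttttaTAGggTAGagttagaa
SNR17A, 3 nt downstream, chrXV:780263-780288, plus strand: taacacattctaCAGTAGgatcattt
TDA5, annotated site, chrXII:987191-987220, plus strand: ctaacatgacgaactaaccTAGgtctctaa
TDA5, 137 nt downstream, chrXII:987328-987357, plus strand: cgtgaatttaagaatggcaTAGttcttatt

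Most members lay close to the annotated 3′SS. Their distances ran from 2 to 857 nt with a median of 28 nt (quartiles 12 and 119 nt). Within 10 nt lay 75 members, with 40.4% of the 33509 member reads, and 71 more lay 11 to 20 nt away, with 34.8% of the reads. The 96 members at 21 to 50 nt held 12.2% of the reads, and the 51 beyond 200 nt held 3.05%. A single junction, NBL1 at 12 nt, held 11.8% of all member reads, and the 20 members with the most reads held 54.1%. At the threshold itself, 18 members had exactly 2 reads, and 18 downstream junctions with 1 read stayed outside.

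To set the members against the AG dinucleotides available, every AG within 300 nt downstream of the annotated 3′SS was counted in the 241 introns with at least 1000 annotated junction reads. Of 5055 such AGs, 345 (6.83%) were members. The share fell with distance: 75 of 119 AGs within 10 nt were members (63.0%), 71 of 164 at 11 to 20 nt (43.3%), 92 of 529 at 21 to 50 nt (17.4%), 30 of 871 at 51 to 100 nt (3.44%) and 25 of 1665 over 200 and up to 300 nt (1.502%). The first AG past the annotated site was a member in 119 of 241 introns, the second AG in 73 and the third AG in 31. First AGs made up 119 of the 377 members and held 67.3% of the member reads. Since the reads chose the members, these shares are a description and carry no test.

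**Figure D1:**
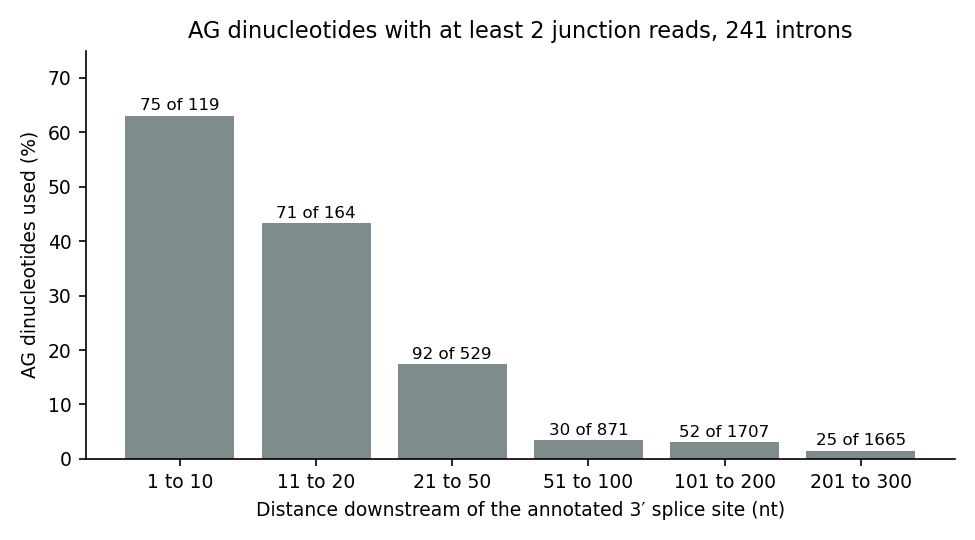
Share of AG dinucleotides (%, y axis) that were members, by distance downstream of the annotated 3′ splice site (nt, x axis), in the 241 introns with at least 1000 annotated reads. Bars start at 0 and carry the counts. The share is 63.0% within 10 nt and 1.502% over 200 and up to 300 nt.

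The bases before the AG differed between used and unused sites. Within 50 nt, 50 of 115 TAGs (43.5%), 52 of 129 CAGs (40.3%), 118 of 432 AAGs (27.3%) and 18 of 136 GAGs (13.2%) were members. The order was the same within 10 nt and at 21 to 50 nt. At 11 to 20 nt CAGs, with 20 of 29, were ahead of TAGs, with 12 of 24. Within 10 nt, 15 of 30 GAGs and 38 of 63 AAGs were members, whereas at 21 to 50 nt only 1 of 86 GAGs was, against 43 of 278 AAGs. Over all distances 176 members ended in AAG, 95 in CAG, 86 in TAG and 20 in GAG. The annotated sites of the 183 host introns ended in TAG in 97 cases, in CAG in 80 and in AAG in 6. By reads the order of the member triplets was different, with 39.1% of the reads on CAG, 33.1% on AAG, 25.4% on TAG and 2.43% on GAG.

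In 149 of the 183 host introns a match to TACTAAC was found. Its branch adenosine lay a median of 34 nt before the annotated site (quartiles 24 and 42 nt) and a median of 64 nt before the members of those introns. Members near the match held most of the reads: 78 of 305 members lay at most 45 nt from the branch adenosine and held 65.1% of the reads of these members. Of their 18094 reads, 3944 were those of NBL1 at 12 nt. The AGs available at each distance from the match were not counted. The introns were also grouped by this distance. Of the 33 introns with at least 1000 annotated reads whose branch adenosine lay 1 to 20 nt before the annotated site, 13 had more than 10 member reads within 50 nt per 1000 annotated reads. Of the introns with 21 to 30 nt this held for 3 of 49, with 31 to 40 nt for 4 of 59, and with 41 nt or more for 2 of 61. The introns of these groups also differed in depth, with median annotated reads of 12409, 22518, 79877 and 173772 in the same order. Outside ribosomal protein genes these medians were 11718, 9890, 8440 and 15850. There 12 of 29, 3 of 31, 4 of 28 and 2 of 30 introns had more than 10 such member reads per 1000. In ribosomal protein genes 1 of 4, 0 of 18, 0 of 31 and 0 of 31 did. How far depth accounts for the counts was not tested. For a correlation, introns with no member reads within 50 nt were left out. Across the 121 introns with such reads, the log10 of the member reads per annotated read and the branch distance had a Pearson's r of -0.36 and a Spearman's rho of -0.42. Within the 58 introns of non-RP genes among them r was -0.28, and within the 63 of ribosomal protein (RP) genes it was -0.19.

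Splicing to a downstream site mostly shifted the reading frame. In 117 members (31.0%) the distance was a multiple of 3, and 106 of these kept the annotated stop codon. The share of multiples of 3 among all available AGs is not given here, so the 31.0% is a description only. The predicted product had a premature stop in 258 members (68.4%), the annotated stop in 107 (28.4%) and a stop beyond the annotated one in 10. The 2 members in the genes of U3 snoRNA, which encode no protein, were not assessed. Members with the annotated stop held 22.1% of the reads, of which those of NBL1 were the larger part, and lacked 1 to 140 residues, with a median of 12. Identical bases at both ends of the junction, by which the position of a gap in a read can be unclear, reached 4 in 12 members and 8 in none.

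Splicing error frequency (SEF) is given here as the unique reads of the unannotated junction per 1000 unique reads of the annotated junction with the same 5′ end. For the 372 members with at least 10 annotated reads the pooled SEF had a median of 0.567 (quartiles 0.0830 and 3.04) and ran from 0.00382 to 677. The RP genes, which are few but give most spliced mRNA in growing yeast, hosted 161 members with a median SEF of 0.0750. The 211 members in other genes had a median of 2.13. SEF was over 10 for 1 member of an RP gene and for 47 members of other genes, and 6 members, none of them in an RP gene, were over 100. The annotated introns with members had a median of 283492 reads in RP genes and 9230 in other genes. A member needs only 2 reads, so the lowest SEF that can be seen is lower in RP genes, and the levels are therefore compared as a description.

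**Figure D2:**
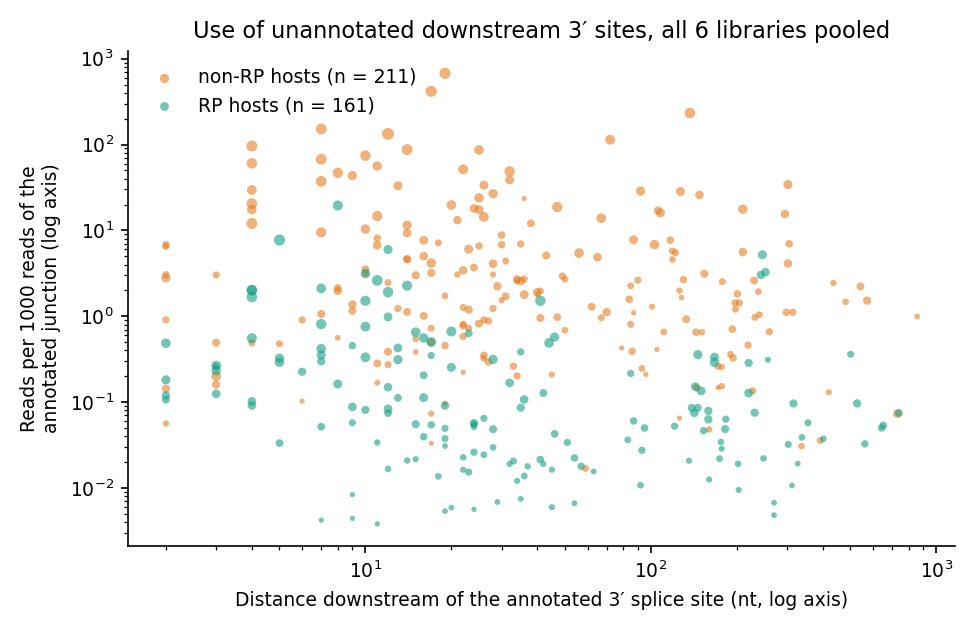
Pooled SEF (reads per 1000 annotated reads over all 6 libraries, log axis) against the distance from the annotated 3′ splice site (nt, log axis) for the 372 members with at least 10 annotated reads. Points are members, larger with more reads, in 161 RP and 211 non-RP cases. The highest SEF, 677, is that of IWR1 at 19 nt, and the members of RP genes have the lower median, 0.0750 against 2.13.

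The highest SEF belonged to IWR1, whose product takes RNAPII into the nucleus. Its site 19 nt downstream, an AAG that is the second AG past the annotated CAG, had an SEF of 541 and 1144 in the fast libraries, 499 and 516 in the slow libraries, and 883 and 710 in the WT libraries. The unannotated junction thus had more reads than the annotated one in 1 of 6 libraries. The frame shift leaves 27 of 353 residues before a stop. Both slow values lay below both WT values, while the fast values lay on either side of them. IWR1 held 5 members and no TACTAAC match. The other members of IWR1, at 11, 26, 32 and 35 nt, had 14, 58, 67 and 12 reads in that order.

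TFC3 encodes a subunit of TFIIIC, the factor that recruits RNA polymerase III. Its CAG 17 nt downstream of an annotated AAG had an SEF of 421 and 189 in fast, 593 and 414 in slow, and 431 and 603 in WT. Both fast values lay below both WT values, by little in the first fast library. The annotated AAG lies 13 nt from the branch adenosine.

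TDA5 held 5 members, of which a pair lay close together and far from the annotated site. The TAG at 137 nt had an SEF of 127 and 344 in fast, 398 and 307 in slow, and 197 and 39.2 in WT. The slow values were above both WT values, whereas the fast values overlapped with them, and the WT libraries stood far apart from each other. The AAG at 127 nt was used less, with an SEF of 17.3 and 18.6 in fast, 51.0 and 12.1 in slow, and 23.1 and 56.0 in WT. Its slow and WT values overlapped, and both fast values were below both WT values. The other members of TDA5 had 106 reads at 9 nt, 32 at 21 nt and 17 at 305 nt.

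NBL1, which encodes a small subunit of the chromosomal passenger complex, had the most reads of all members, 3944. Its CAG is the first AG past the annotated CAG, which lies only 11 nt from the branch adenosine. The SEF was 127 and 142 in fast, 144 and 124 in slow, and 126 and 138 in WT. The groups overlapped and every library lay within this narrow range. The 12 nt removed keep the frame and shorten the protein from 73 to 69 residues.

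TAN1, needed for acetylation of cytidine in tRNA, had an SEF of 158 and 97.1 in fast, 130 and 142 in slow, and 184 and 183 in WT at an AAG 7 nt downstream. All 4 mutant values were below both WT values. HPC2, a subunit of the HIR complex that assembles nucleosomes, had an SEF of 74.2 and 131 in fast, 108 and 129 in slow, and 53.4 and 209 in WT at a CAG 72 nt downstream, which keeps the frame. The mutant values all lay between those of WT. ATG44, a gene of mitochondrial fission in mitophagy, had an SEF of 97.3 and 105 in fast, 81.1 and 104 in slow, and 78.3 and 103 in WT at a TAG 4 nt downstream. The strains overlapped throughout.

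RAD14, which recognises damage in nucleotide excision repair, had an SEF of 80.3 and 53.8 in fast, 49.4 and 134 in slow, and 134 and 95.1 in WT at a TAG 25 nt downstream. The fast values were below both WT values. HMRA1, the silent copy of the gene of the a1 repressor, had an SEF of 97.3 and 102 in fast, 97.7 and 89.4 in slow, and 50.9 and 87.0 in WT at an AAG 14 nt downstream. All mutant values were above both WT values. Reads of an expressed MATa1 gene, which has the same sequence, cannot be told apart from those of HMRA1. The study lists every strain as MATa, so these reads may be those of MATa1. PTC7, a protein phosphatase gene, had an SEF of 56.0 and 55.7 in fast, 102 and 78.0 in slow, and 92.3 and 81.5 in WT at a CAG 10 nt downstream. Here only fast lay apart from WT, below it.

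**Figure D3:**
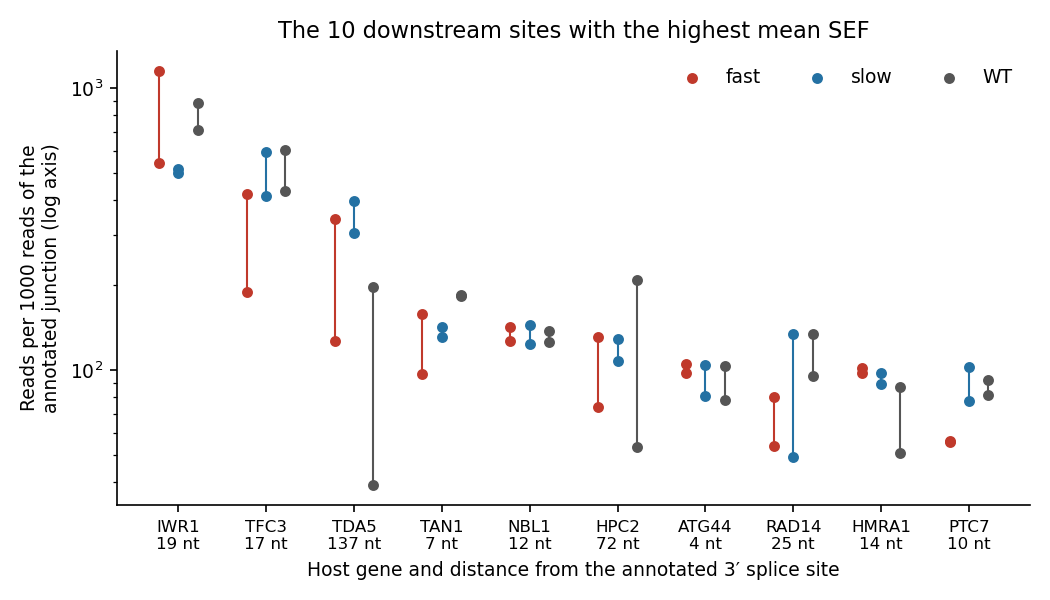
SEF (reads per 1000 annotated reads, log axis) of the 10 members with the highest mean SEF among those with at least 20 reads. Each point is a library and lines join the replicates, with fast, slow and WT from left to right. The 6 libraries of NBL1 lie between 124 and 144, whereas those of WT for TDA5 at 137 nt are at 197 and 39.2.

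Other members with many reads lay in abundant mRNAs and had a lower SEF. RPS17B, a protein of the small ribosomal subunit, had an SEF of 9.17 and 7.65 in fast, 11.1 and 2.74 in slow, and 9.04 and 7.01 in WT at a TAG 5 nt downstream. SAR1, the GTPase of COPII vesicles, had 16.1 and 13.4 in fast, 15.4 and 6.001 in slow, and 12.4 and 10.3 in WT at a CAG 4 nt downstream. In both the second slow library was the lowest of the 6 and the first slow library was not. For SAR1 both fast values were above both WT values. RPS19B, another protein of the small subunit, had an SEF of 2.59 and 3.30 in fast, 3.14 and 1.72 in slow, and 1.56 and 3.43 in WT at a CAG 11 nt downstream, with overlap between all strains.

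SEC14, UBC12 and SPT14 are hosts in which the study names alternative 3′SSs, but most of their reads at such sites were upstream of the annotated one, with 2853, 1015 and 1074 upstream reads and 322, 58 and 10 downstream reads in that order. The downstream values are therefore probably not those of the events that the study names. SEC14, a phospholipid transfer protein, had 313 reads and an SEF of 7.97 and 8.72 in fast, 14.3 and 3.17 in slow, and 15 and 9.35 in WT at an AAG 7 nt downstream, with 9 reads in all at 12 nt. At 7 nt both fast values were below both WT values. UBC12, the conjugating enzyme of the ubiquitin-like Rub1, had an SEF of 7.46 and 0 in fast, 52.7 and 4.39 in slow, and 53.9 and 0 in WT at an AAG 24 nt downstream, with 47 reads in all, and 4 and 7 reads at 30 and 50 nt. SPT14, of GPI anchor synthesis, had 6 reads at 119 nt, all in 1 WT library, and 4 at 28 nt, all in 1 slow library.

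Exon skipping gave few reads in each of its 9 members. The most were 130 reads in DYN2, the dynein light chain, where SEF was 3.69 and 5.64 in fast, 3.12 and 14.3 in slow, and 0 and 14.9 in WT. In TAD3, a subunit of the tRNA adenosine deaminase, SEF was 20.5 and 23.8 in fast, 0 and 29.7 in slow, and 6.20 and 9.06 in WT. Both fast values of TAD3 were above both WT values, on 38 reads in fast and 11 in WT, and the slow libraries lay on either side. SUS1, of the SAGA and TREX-2 complexes, had 42 reads, with an SEF of 9.98 and 0 in fast, 9.90 and 0 in slow, and 13.6 and 0 in WT, so that the second library of every strain had none. The remaining 6 skipping members had 29 (EFM5), 13 (HMRA1), 12 (RPL7A), 11 (YOS1), 8 (RPL7B) and 7 reads (VMA9). The 3 farthest members with at least 10 reads were RPS0B at 739 nt (21 reads) and 652 nt (15 reads) and EFB1 at 730 nt, whose 39 reads came from a single WT library.

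The reads of a member were uneven over the libraries. In 140 of the 377 members all reads came from 1 library (median 7 reads, at most 39), and only 68 members had reads in all 6 libraries. These 68 held 78.3% of the member reads. In fast, 241 members had a read and 125 of them had reads in both libraries, in slow 106 of 251, and in WT 117 of 242. Among members with at least 20 reads in a strain and reads in both its libraries, the SEF of replicates differed by a median of 1.67-fold in fast, 1.71-fold in slow and 2.12-fold in WT, and by at most 20.9-, 30.8- and 47.1-fold. The libraries carry no molecular identifiers, so that several reads can be copies of 1 molecule. The part of this in the uneven reads was not tested.

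**Figure D4:**
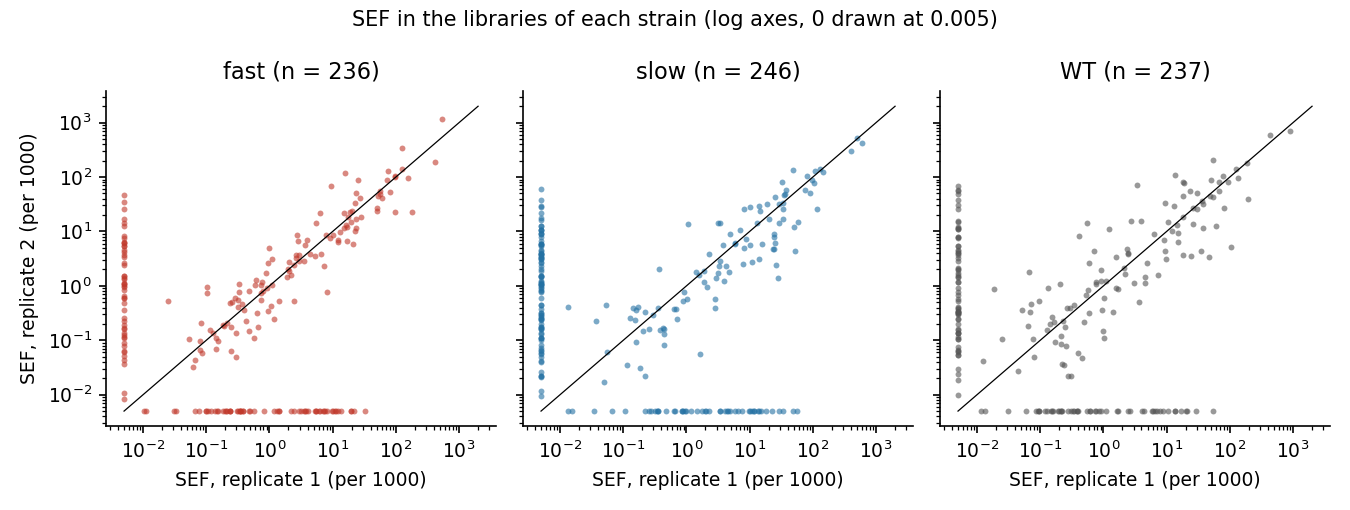
SEF (reads per 1000 annotated reads) in replicate 2 (y axis) against replicate 1 (x axis) of fast, slow and WT, on log axes, with a value of 0 drawn at 0.005. Points are members with a read in the strain and annotated reads in both libraries, and the line marks equal values. The points at the edges are the members with reads in only 1 of the 2 libraries.

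Strains were first compared over the summed members. The summed SEF was 1.16 and 1.25 in fast, 1.61 and 1.38 in slow, and 1.05 and 1.14 in WT. Both slow values, and both fast values, were above both WT values, with a log2 ratio of 0.14 for fast and 0.44 for slow. With 2 libraries against 2 an exact permutation test cannot give a p under 0.333, so no p is printed for such sums. In RP hosts the summed SEF was 0.537 and 0.553 in fast, 0.531 and 0.407 in slow, and 0.445 and 0.460 in WT. In other hosts it was 5.16 and 5.70 in fast, 8.33 and 6.57 in slow, and 5.45 and 5.93 in WT.

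A sum of this kind also moves with the share of each host in the annotated reads, since SEF differs widely between hosts. The reads of each library were therefore also divided by the number expected from its annotated reads and the pooled SEF of each member. This ratio was 1.02 and 1.05 in fast, 1.06 and 0.934 in slow, and 0.945 and 0.995 in WT. The slow libraries now lay on either side of WT, with a log2 ratio of 0.04 in place of 0.44, and fast lay above WT by 0.09. In RP hosts the ratio was 1.14 and 1.14 in fast, 1.05 and 0.808 in slow, and 0.905 and 0.930 in WT, so that fast was higher than WT by a log2 ratio of 0.31 with no overlap. Without RPS17B, the RP host with the most reads, the fast values were 1.13 and 1.17, against 0.870 and 0.933 in WT. In other hosts the ratio was 0.949 and 0.9999 in fast, 1.07 and 0.987 in slow, and 0.972 and 1.04 in WT, with overlap. For upstream 3′SSs the same ratio was 1.09 and 1.15 in fast, 1.04 and 1.05 in slow, and 0.822 and 0.814 in WT. For upstream 3′SSs of RP hosts it was 1.16 and 1.29 in fast, 1.09 and 0.951 in slow, and 0.748 and 0.732 in WT. Whether upstream and downstream sites differ in this was not tested.

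**Figure D5:**
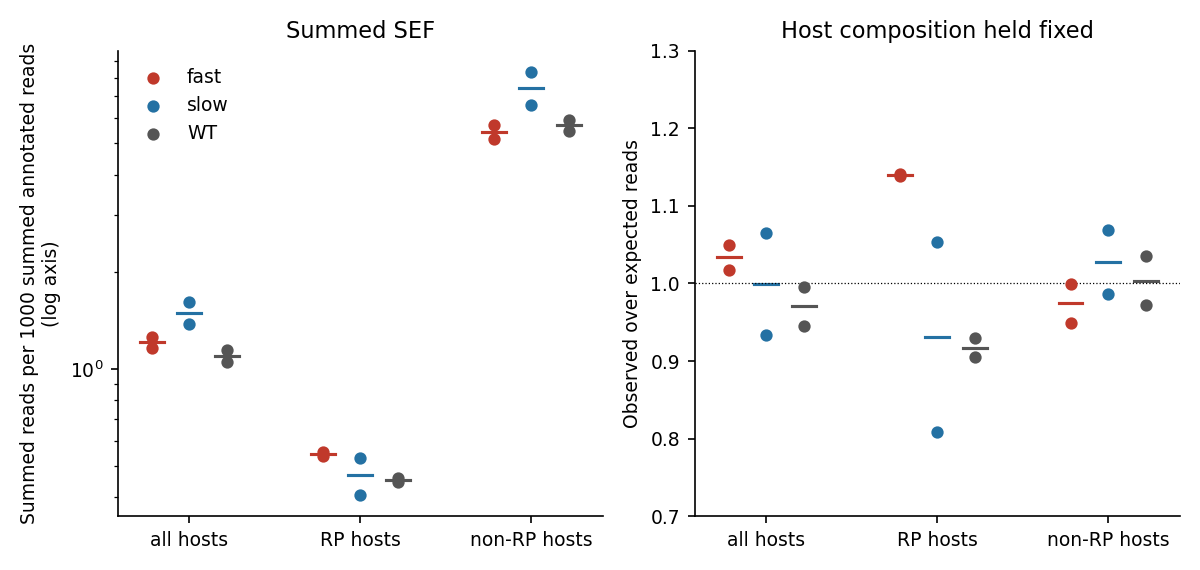
Member reads per library (points) and strain means (bars), for all, RP and non-RP hosts, with fast, slow and WT from left to right. Left, summed SEF (reads per 1000 annotated reads, log axis). Right, observed reads over those expected from the annotated reads of each host (linear axis from 0.7 to 1.3, dotted line at 1). The slow libraries are above WT on the left for all hosts (1.61 and 1.38 against 1.05 and 1.14) and on either side of WT on the right (1.06 and 0.934 against 0.945 and 0.995).

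By distance, the ratio of observed to expected reads for members within 10 nt was 1.08 and 1.15 in fast, 1.03 and 0.831 in slow, and 0.924 and 0.986 in WT. For those 11 to 20 nt away it was 0.946 and 1.06 in fast, 1.10 and 0.905 in slow, and 0.947 and 1.06 in WT. At 21 to 50 nt it was 1.07 and 0.742 in fast, 1.19 and 1.14 in slow, and 1.06 and 0.796 in WT. At 51 to 100 nt it was 0.870 and 1.17 in fast, 0.818 and 1.12 in slow, and 0.792 and 1.21 in WT. Within 10 nt both fast values were above both WT values, and the slow values lay on either side of WT. The strains overlapped in the bins of 11 to 20 and 51 to 100 nt, and at 21 to 50 nt both slow values were above both WT values. For those 101 to 200 nt away it was 0.944 and 1.06 in fast, 1.22 and 1.20 in slow, and 0.693 and 0.845 in WT. Fast and slow were each above WT there, and TDA5 at 137 nt, with 567 of the 1778 reads at this distance, was the largest member. Beyond 200 nt it was 1.13 and 0.548 in fast, 0.599 and 1.11 in slow, and 1.38 and 1.20 in WT, and both WT values were above all mutant values.

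For single members the edgeR quasi-likelihood test across libraries was used, with Benjamini-Hochberg adjusted p over all 534 alternative splice sites that had at least 10 reads, of which 250 were members. In 96 of the 250 members for fast against WT, 102 for slow against WT and 99 for fast against slow, at least 1 strain of the pair had no reads, and such a member passed the filter only through the remaining strains. In fast against WT 1 member was higher and 0 were lower, where 1.5% of all sites tested were higher and 0.187% lower. In slow against WT 0 members were higher and 0 lower, against a background of 0.187% in each direction. In fast against slow 1 member was higher and 0 were lower, where 0.562% of all sites were higher and 0% lower. At an unadjusted p under 0.05 there were 4 members higher and 2 lower in fast against WT, where 27 and 5 of all 534 sites were. In slow against WT there were 3 and 4 members, against 18 and 9 of all sites, and in fast against slow 7 and 1 members, against 17 and 4 of all sites. DESeq2 called 0 members in each of the 3 comparisons, and 0.187% of all sites higher in fast against WT and in slow against WT. At an unadjusted p under 0.05 it gave 14 members higher and 9 lower in fast against WT (40 and 13 of all sites), 6 and 7 in slow against WT (17 and 14 of all sites), and 17 and 6 in fast against slow (32 and 9 of all sites). The median log2 ratio of SEF was 0.10 over the members and 0.19 over all sites for fast against WT, 0.05 and 0.16 for slow against WT, and 0.17 and 0.14 for fast against slow. Medians were also taken with strains that had no reads set to 3 counts. They were 0.09, -0.05 and 0.22 over 225, 214 and 232 members in the same order. The sign for slow against WT differed between the 2 kinds of median. It also differed over the 65 members with reads in all 6 libraries (0.04 and -0.06), where no count was set to 3. The 2 kinds of median therefore differ in more than the handling of 0 reads. In simulated data with 8-fold changes in fast, the test called 29 of 59 changed sites with at least 100 reads and 9 of 141 with fewer. Few calls therefore do not show that the strains use these sites alike. The simulated counts were drawn with the dispersions that the test had fitted, so this recovery need not hold for the real libraries.

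The single call was the TAG 3 nt downstream in SNR17A, a gene of U3 snoRNA, which guides early processing of ribosomal RNA. It had 69 and 131 reads in fast and 0 reads in all slow and WT libraries. The annotated junction had 244376 and 222339 reads in fast, 84840 and 182154 in slow, and 133732 and 124861 in WT. With the count of 0 set to 3 reads over the strain, SEF was 36.9-fold higher in fast than in WT and 38.1-fold higher than in slow. These folds count each read as a separate molecule and are a description. All reads of the site were in fast, so it met the rule for members and the filter of 10 reads only through the strain in which it was high. Neither the folds nor its p-values past the threshold are given as support. The call also rests on a dispersion trend chosen after a first trend had given no call, and under that first trend the adjusted p for fast against WT was 0.784 and under DESeq2 it was 0.0870, and for fast against slow they were 0.851 and 0.283. In fast against slow the adjusted p of edgeR was also 0.0621 without the second fast library and 0.0895 without the second slow library. The longest overhang of the reads was 19 nt, against 42 nt for the annotated junction of SNR17A and a median of 56 nt over all members. SNR17B, the near-identical copy of the gene, had a member at the same distance with 31 reads, all in the second fast library, and reads of the copies can be mistaken for each other. The sequence of these genes in each strain was not checked.

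Among the members with the highest SEF, TDA5 at 137 nt was higher in slow than in WT by 1.95 ± 0.68 (SE) on the log2 scale, with an adjusted p of 0.234 in edgeR. Without the first WT library the log2 ratio was 3.14, and without the second it was 0.83. TFC3 at 17 nt had a log2 ratio of -0.85 ± 0.39 in fast against WT (edgeR, adjusted p = 0.517), and IWR1 at 19 nt one of -0.64 ± 0.40 in slow against WT (adjusted p = 1). For NBL1 at 12 nt the log2 ratio was 0.02 in fast against WT, with a 95% interval of -0.36 to 0.41. In slow against WT it was 0.02, with an interval of -0.37 to 0.40. These SEs, intervals and p-values use the spread of a trend shared by all sites, not that of the single site between its replicates.

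The study used Fisher's exact test. Applied here to the summed reads of the replicates, it does not take the spread between libraries into account. At the study's thresholds (p of 0.01, false discovery rate of 0.03) this test called 73 members higher and 48 lower in fast than in WT, where 32.4% and 20.4% of all sites were called. In slow against WT it called 56 higher and 56 lower, where 26.4% and 22.1% of all sites were called. In fast against slow it called 75 higher and 60 lower, where 29.2% and 21.7% were. Of the 121 members called in fast against WT, the libraries of the strains overlapped in 60, and 47 had reads in at most 1 library of each strain. In slow against WT 64 of 112 overlapped, and in fast against slow 82 of 135. These overlaps are given for members only, so they do not set the members apart from the other sites called.

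Counted by library, both fast libraries were above both WT libraries in 38 of the 250 members and below them in 31, where this held for 18.7% and 10.5% of all sites. Both slow libraries were above both WT libraries in 26 members and below in 31, against 13.5% and 12.2% of all sites. Both fast libraries were above both slow libraries in 41 members and below in 21, against 17% and 8.99%. Of the 250 members tested 107 were of RP genes, and the share of RP genes among all sites is not given here. The 38 members higher in fast than in WT by this count were 23 of RP genes and 15 of others. The 31 lower ones were 8 of RP genes and 23 of others. Among the 38 higher ones RPL23A, a protein of the large subunit, was named after its values were seen. It had an SEF at a TAG 4 nt downstream of 2.01 and 1.85 in fast, 1.92 and 1.90 in slow, and 1.09 and 1.25 in WT. All its mutant values lay above both WT values. In fast against WT its log2 ratio was 0.72 ± 0.58 (SE), with an adjusted p of 0.968 in edgeR. It was picked from members sorted by the separation of fast from WT, so that separation is no support.

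By the function of the hosts, no list other than the hosts outside all lists held a called member. The RP list had 161 members in 76 genes, 107 of them tested, with a median log2 ratio of 0.49 in fast against WT, 0.17 in slow against WT and 0.76 in fast against slow. With host composition held fixed, the summed reads of RP hosts gave 0.31, 0.02 and 0.29 in the same order. The medians of the lists include members with no reads in a strain, whose fitted ratios depend on the prior count. Genes of vesicle traffic had 22 members in 13 genes and of RNA processing and export 17 members in 6 genes, with medians for fast against WT of -0.39 over 9 tested and -0.11 over 14 tested. Cytoskeletal genes had 16 members in 9 genes, with 0.33 over 12 tested, and genes of ubiquitin and the proteasome 17 members in 7 genes, with -0.96 over 8 tested. Genes of mitochondrial proteins had 14 members in 5 genes, with -0.19 over 9 tested, and meiotic genes had 1 member with 2 reads. RPS0B held the most members of any gene, 11, and 77 of the 176 host genes held 1.

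Unspliced RNA of the hosts was read from the read-class tables, as boundary and intron reads over these plus junction reads. IWR1 had a pre-mRNA fraction of 35.3% and 47.2% in fast, 53.3% and 60.4% in slow, and 77.1% and 59.6% in WT. For TDA5 it was 8.18% and 17.7% in fast, 4.69% and 11.4% in slow, and 35.4% and 29.0% in WT. In both genes all fast values were below both WT values, and in TDA5 all slow values were too. TFC3 had 10.6% and 15.1% in fast, 5.14% and 4.50% in slow, and 11.6% and 18.2% in WT, and NBL1 had 1.61% and 1.06% in fast, 2.46% and 2.32% in slow, and 2.55% and 3.18% in WT. RPS17B had 35.6% and 37.0% in fast, 19.8% and 23.3% in slow, and 29.9% and 31.0% in WT, so that its strains did not overlap here although their SEF did. In these tables a read joined to an unannotated 3′SS may not be counted as a junction read, and its part in the fractions was not tested.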

How the data were processed

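RNA of upf1-deletion strains with fast, slow or WT RNAPII was analysed, 2 libraries each, grouped by the sample labels. The authors aligned strand-specific paired-end reads with STAR (version not given in the sources used here) to sacCer3 (R64) with the Ensembl annotation, and deposited, for each junction, the raw counts of split reads that map uniquely or to several places. They also deposited raw DICEseq counts of intron, boundary and junction reads of each gene. The FPKM values the authors deposited beside these counts were not used.

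Hosts were taken from the RefSeq annotation of R64, for 2 introns (SNR17A, SNR17B) as the nearest gene. All alternative splice sites with at least 10 unannotated and 10 annotated reads entered 1 fit of edgeR 4.0.16 (R 4.3.3), with 2 columns per library, library effects and read class by strain. Of 377 members 254 had 10 reads and 250 were tested, since 4 had under 10 annotated reads. The threshold was an adjusted p of 0.05. With the default dispersion trend over all columns no member was called and the self-test on made-up counts recovered few changes. The trend was then made to follow the unannotated reads. It recovered none of the same made-up changes, and the made-up counts were redrawn with the fitted dispersions (0.129 to 1.08) and other changes, so both the trend and the self-test were chosen after results were seen. Fisher's exact test and DESeq2 1.42.0 were alternatives, and the others are given in the closing section. In strains with 0 reads the ratios were taken with the count set to 3. Intervals and p-values rest on 2 cultures per strain. The prior degrees of freedom of the edgeR fit were infinite, so each site was given the spread of the trend shared by all sites. The spread of a site between its own replicates had no weight in its SE, interval or p. Python 3.11.15, numpy 2.4.6, pandas 2.3.3 and matplotlib 3.10.9 were used.

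SEF in the report divides reads of the unannotated junction by those of the annotated one. The members, gene lists and tests were chosen with earlier results of these data known. Named members were all those called, the 10 with the highest mean SEF among those with at least 20 reads, the 8 with the most reads, all exon skipping members, the 3 farthest with at least 10 reads, and downstream sites in hosts in which the study names 3′SS events of unstated or downstream direction (IWR1, TDA5, SEC14, UBC12 and SPT14). Hosts it names for upstream 3′SSs or for 5′ splice sites were left out. RPL23A at 4 nt falls outside these rules and was named after its values were seen.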

Additional observations from a re-analysis of the deposited data

Results flagged for a closer look

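The effect on the site 3 nt downstream in SNR17A stood out in the test between the mutants, with a fitted log2 ratio of 8.76 for fast against slow (edgeR, reads in 2 of 2 fast libraries and in 0 of 2 slow libraries). It met the rule for members and the filter on reads only through fast, so its p is not given as support. The slow libraries have no reads of it, so the fitted value depends on the prior count. The 38.1-fold in the results depends in the same way on the 3 reads set in place of 0, and is a description. Groups of 2 libraries are too small for a search for outlying libraries.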

How the results depend on the processing

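Counts of calls depended on the test. Members called higher and lower were 73 and 48 (fast against WT), 56 and 56 (slow against WT) and 75 and 60 (fast against slow) by Fisher's exact test, and 0 in every comparison by DESeq2 and by the default dispersion trend over all columns, which was the first choice and was replaced after it had given no call. Among members with reads in all 6 libraries 0 were called. When 5 reads were required in each library of some strain, there were 4 higher in fast than in WT and 4 higher than in slow, namely SNR17A, RPL26A at 19 nt, VMA9 at 26 nt and YSF3 at 30 nt. All 4 had reads in fast and none in slow or WT, so they met this filter only through the strain in which they were high. With an offset of all annotated reads of the library 1 was lower in fast than in WT and 1 lower than in slow (TAN1 at 7 nt in both), and 1 was higher in slow than in WT (TDA5 at 137 nt). Leaving out 1 library at a time gave 1 to 2 higher and 0 lower in fast against WT, 0 to 1 higher and 0 to 1 lower in slow against WT, and 0 to 1 higher in fast against slow. The further calls were RPS17A at 5 nt without fast replicate 1, RPS10A at 3 nt without WT replicate 2, and RPS21A at 41 nt without slow replicate 2, where RPS21A took the place of SNR17A in fast against slow.

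For SNR17A the log2 ratio of fast against WT was 8.16 in DESeq2 and 8.72 with the default trend, and of fast against slow 8.11 and 8.75, none of them past the threshold. Its adjusted p was over 0.05 in fast against slow without fast replicate 2 (0.0621) and without slow replicate 2 (0.0895), with log2 ratios over all left-out libraries of 8.12 to 9.29. TDA5 (1.57, slow), TFC3 (-0.85, fast) and IWR1 (-0.63, slow) passed in Fisher's test, and TDA5 (2.22) with the library offset, under which IWR1 had the other sign (0.72). NBL1 lay on either side of 0 when libraries were left out, from -0.058 without fast replicate 2 to 0.101 in fast against WT, with -0.044 without WT replicate 1, and from -0.093 without slow replicate 1 to 0.128 in slow against WT, with -0.048 without WT replicate 1.

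The log2 ratio of summed SEF in slow against WT, 0.44, was 0.042 with the composition of hosts held fixed and 0.0505 in RP hosts. In fast against WT it was 0.27 in RP hosts and -0.067 in other hosts. In fast against slow, -0.31, it was 0.049 with composition fixed and 0.22 in RP hosts. The host and composition settings, the default dispersion trend and the restriction to members with reads in all libraries were added after seeing the data. The median log2 ratio of fast against slow was -0.16 with no filter on low counts. The cause of these differences was not tested.

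The labels do not say whether libraries of the same replicate number were handled together. Deviations of same-numbered libraries correlated at 0.022 (fast and slow), 0.010 (fast and WT) and 0.0096 (slow and WT) over 110 sites. A shift shared by all sites does not enter such a correlation, so it cannot decide whether the libraries are paired. With a replicate block the calls were 1 higher and 0 lower in fast against WT, 0 and 0 in slow against WT and 1 and 0 in fast against slow.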
